A study of Mus musculus with 3 samples.

Results

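A set of 9 genes of the ankyrin and spectrin membrane skeleton were examined in RNA bound to tagged ribosomes from the deep cerebellar nuclei of the mouse, the output station of the cerebellum. They were chosen by name, as the 3 ankyrin genes Ank1, Ank2 and Ank3, the spectrin genes Sptan1, Sptbn1, Sptbn4 and Sptb, and the adducin genes Add1 and Add2, and all 9 are among the 32531 gene symbols of the count tables. The libraries came from adult mice of the Htr6-TRAP line NIDA113 on the C57BL/6J strain, which carry a fusion of EGFP with the ribosomal protein L10a (Rpl10a) and are named for Htr6, a serotonin receptor gene. Translating ribosome affinity purification (TRAP) pulls down ribosomes with the EGFP tag by an antibody, and the RNA they hold is sequenced. All 3 libraries are purified samples of that 1 group, with no treatment and no untagged or unpurified sample among them, so levels here are abundances in purified RNA and comparisons are between genes within a library. The labels do not say how many animals each library holds, so the spread between libraries may be partly technical.

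The membrane skeleton is a lattice of spectrin rods joined by short actin filaments under the plasma membrane. Spectrin is a tetramer of alpha and beta chains, adducin caps the actin filaments and links them to spectrin, and ankyrins tie the lattice to ion channels, pumps and adhesion molecules. In axons the lattice is a periodic row of actin rings spaced by spectrin. Ankyrin-G (Ank3) with beta-IV spectrin (Sptbn4) builds the axon initial segment and the nodes of Ranvier, ankyrin-B (Ank2) lies along the axon shaft with beta-II spectrin (Sptbn1), and ankyrin-R (Ank1) and beta-I spectrin (Sptb) are best known from red blood cells but are also made by neurons.

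Depth was 7622010 to 8842058 counts assigned to genes per library, and between 13095 and 13951 genes had a count. Values are CPM, the usual scaling of counts to a common effective library size, or RPKM, which is CPM divided by the length of the gene's exons in kilobases, and errors are SD over n = 3 libraries. Levels of members are compared with each other as RPKM, while places among all genes are given in CPM. The neuronal marker list summed to 16767 to 24789.6 CPM, and 4 of 5 markers of glutamatergic deep nuclei neurons had a mean of at least 10 CPM. The highest of them was the glutamate transporter gene Slc17a6 (302 ± 80.2 CPM), while Tbr1 was at 1.46, 17.5 and 12.3 CPM and Lhx9 at 6.62, 8.29 and 3.72 CPM in replicates 1, 2 and 3. Markers of granule cells (2732 to 3026 CPM summed), Purkinje cells (5699 to 7621 CPM), oligodendrocytes (2889.5 to 3662 CPM) and astrocytes (1655 to 2140.5 CPM) were present too, with all 5, all 6, all 6 and 4 of 5 genes at a mean of 10 CPM or more. These lists were uneven. Itpr1, also listed here as an ankyrin-binding gene, was the highest Purkinje gene (3669 ± 451 CPM), while Pcp2 was at 13.9, 29.7 and 39.1 CPM. Mog was at 9.80, 7.04 and 24.8 CPM, Mag at 35.2, 17.9 and 6.80 CPM and Aldh1l1 at 2.91, 5.11 and 7.57 CPM. The share of the members' counts that each cell type gave was not tested, and in bulk RNA fewer cells of a type and less RNA per cell cannot be told apart.

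Within each family the paralogs are close enough in sequence to be aligned yet far enough apart for reads to be assigned. The stretches below are the 90 bases of coding sequence with the most identical positions in each family's alignment, shown because the paralog shares reported here rest on reads that tell these genes apart. They are from the longest coding transcript of each gene in GENCODE M21 (build mm10), 5′ to 3′ on the coding strand, and capitals mark positions at which the family members do not all carry the same base.
Ank1: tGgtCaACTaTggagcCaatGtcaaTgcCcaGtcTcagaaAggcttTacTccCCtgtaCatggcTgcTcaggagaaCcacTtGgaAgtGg
Ank2: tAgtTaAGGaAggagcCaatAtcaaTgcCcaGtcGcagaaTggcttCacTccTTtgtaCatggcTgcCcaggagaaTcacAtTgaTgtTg
Ank3: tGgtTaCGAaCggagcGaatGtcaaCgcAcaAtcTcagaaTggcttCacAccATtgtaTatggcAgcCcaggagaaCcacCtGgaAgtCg
Sptbn1: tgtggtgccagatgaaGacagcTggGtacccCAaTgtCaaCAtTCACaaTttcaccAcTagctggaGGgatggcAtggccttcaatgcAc
Sptbn4: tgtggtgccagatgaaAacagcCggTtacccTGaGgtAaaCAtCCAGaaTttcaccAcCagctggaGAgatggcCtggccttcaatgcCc
Sptb: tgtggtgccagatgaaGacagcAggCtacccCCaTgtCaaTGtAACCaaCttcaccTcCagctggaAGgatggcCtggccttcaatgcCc
Add1: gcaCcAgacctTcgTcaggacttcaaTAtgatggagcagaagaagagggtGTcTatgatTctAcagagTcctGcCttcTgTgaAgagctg
Add2: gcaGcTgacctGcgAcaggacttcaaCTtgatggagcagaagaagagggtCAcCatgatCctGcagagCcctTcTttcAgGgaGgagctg

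The ankyrin stretches carry the same base in all 3 genes at 65 of 90 positions, the beta spectrin stretches at 70 and the adducin stretches at 73. Each stretch spans 2 coding exons, so the genome ranges given here include the intron between them. Those of the ankyrins start at coding base 389 in Ank1 (chr8:23084780-23085630, plus strand), 284 in Ank2 (chr3:127057040-127077539, minus strand) and 326 in Ank3 (chr10:69809232-69815746, plus strand). The beta spectrin stretches lie at chr11:30149946-30151580 (Sptbn1), chr7:27426842-27428208 (Sptbn4) and chr12:76628911-76629637 (Sptb), all on the minus strand. Those of the adducins lie at chr5:34601467-34604707 (Add1) and chr6:86085973-86086921 (Add2), both on the plus strand. The longest run of bases shared exactly by the coding sequences of 2 listed paralogs was 30 bases, between Sptbn1 and Sptb, and the shortest such maximum was 19 bases, between Ank1 and Ank3. No window of 50 bases in a member's longest coding transcript was found in the transcript of another member. Windows shared with any other annotated gene made up at most 3.18% of a transcript, the value of Add2, whose exons are overlapped by the antisense gene Gm44089.

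Ankyrin transcripts were abundant in CPM, which favours long genes. Ank2 and Ank3 exceeded Ank1 7.06-fold and 5.46-fold in CPM, but 2.72-fold and 2.13-fold per length over all annotated exons. The size of this gap depends on the length used. It was 4.06-fold and 4.53-fold with the longest coding transcript, and 3.73-fold and 2.55-fold with exons of coding transcripts (added after the data were seen). Ank2, which encodes ankyrin-B (ENSMUSG00000032826.17, chr3:126921612-127499350, minus strand), had 22180, 25725 and 26674 counts in replicates 1, 2 and 3, or 2936, 2920 and 3423 CPM. Replicates 1 and 2 were almost equal and replicate 3 was the highest. Ank3, which encodes ankyrin-G (ENSMUSG00000069601.14, chr10:69398773-70027438, plus strand), had 16045, 20557 and 21600 counts, or 2124, 2333 and 2772 CPM. Ank1, which encodes ankyrin-R (ENSMUSG00000031543.18, chr8:22974844-23150497, plus strand), had 3357, 3952 and 3254 counts, or 444, 449 and 418 CPM. Its libraries differed by a factor of 1.07 between the highest and the lowest. The antisense gene Gm15816 overlaps 6.37% of the exon bases of Ank1 and had 40, 109 and 20 counts itself, and without a stated strand setting reads there cannot be told apart.

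**Figure D1:**
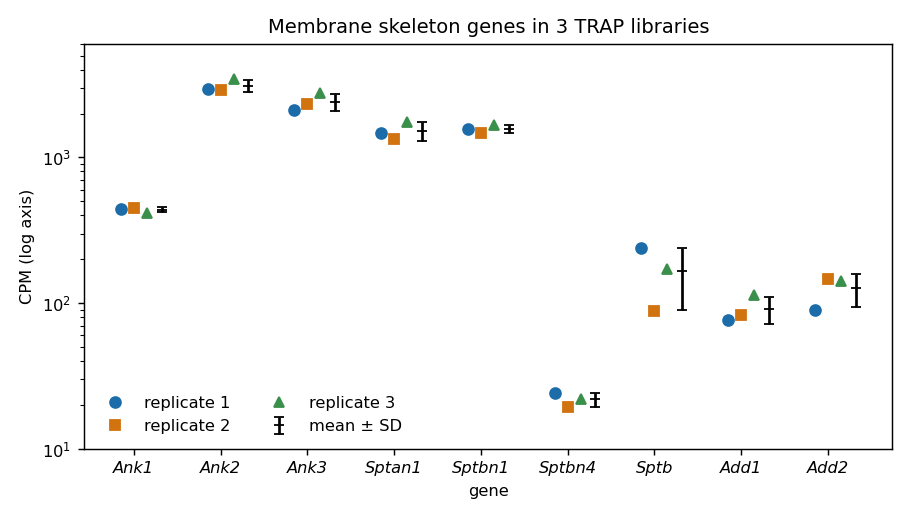
CPM of the 9 membrane skeleton genes (horizontal axis) on a log axis, with 1 symbol per library and the mean ± SD of 3 libraries in black. Ank2 sits between 2920 and 3423 CPM and Sptbn4 between 19.3 and 24.2 CPM, while Sptb has the widest spread, from 87.8 to 237 CPM.

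Per length, Ank2 and Ank3 were close to each other and both exceeded Ank1 in every library. Ank2 was at 88.4 ± 8.17 RPKM, Ank3 at 69.2 ± 9.49 RPKM and Ank1 at 32.3 ± 1.24 RPKM (SD, n = 3). The log2 difference of RPKM values (with a pseudocount of 0.1) was 1.45 ± 0.19 for Ank2 minus Ank1 and 1.09 ± 0.25 for Ank3 minus Ank1, each of 1 sign in 3 of 3 libraries. For Ank2 minus Ank3 it was 0.46, 0.32 and 0.30 in replicates 1, 2 and 3, or 0.36 ± 0.09. The order of Ank2 and Ank3 depends on the length assigned to each gene. Their annotated exons add up to 35004 and 34838 bases, while the longest coding transcripts listed are 14305 and 9963 bases, and with the latter lengths the difference was -0.16 ± 0.09, with Ank3 the higher in 3 of 3 libraries. Exons of coding transcripts alone (18297 and 20863 bases, an alternative added after the data were seen) gave 0.55 ± 0.09. Both genes are known for a giant neuronal exon, and their longest annotated exons have 6198 bases (Ank2) and 7674 bases (Ank3). The coding sequence of the longest coding transcript has 11700 bases in Ank2 but 5883 in Ank3, fewer than that Ank3 exon. The lengths behind the value of -0.16 may therefore be of unlike transcript forms. The counts do not tell which transcripts were present. For this and the other 8 differences between members computed here, signs were flipped library by library in an exact permutation test (two-sided), whose smallest possible p with 3 libraries is 0.25. Every difference of 1 sign in all 3 libraries has that p by the exact test (0.321 after Benjamini-Hochberg adjustment over the 9), so sizes are set against their SD.

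As shares of the ankyrin family per length, Ank2 made up 46.5 ± 0.95%, Ank3 36.3 ± 1.96% and Ank1 17.1 ± 2.004% (SD, n = 3). The Ank2 share was between 45.4% and 47.2% in every library. Ank3 held 34.3%, 36.5% and 38.2% in replicates 1, 2 and 3, and Ank1 held 18.5%, 18.1% and 14.8%, so the library with the lowest Ank1 share was the one with the highest Ank3 share. Shares of a family are bound to each other, since a lower share of any gene means a higher share elsewhere. In CPM, Ank1 changed little (444, 449 and 418), while Ank2 (3423 CPM) and Ank3 (2772 CPM) were highest in replicate 3. As plain shares of ankyrin counts, Ank1 had 8.07% in replicate 1 (95% exact Clopper-Pearson interval 7.81 to 8.34%), 7.87% in replicate 2 (7.63 to 8.11%) and 6.32% in replicate 3 (6.11 to 6.53%). The interval of replicate 3 lies below the other two. These intervals cover counting error only, since reads without molecular identifiers are not independent molecules. The family as a whole took 0.595 ± 0.072% of all gene counts.

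**Figure D2:**
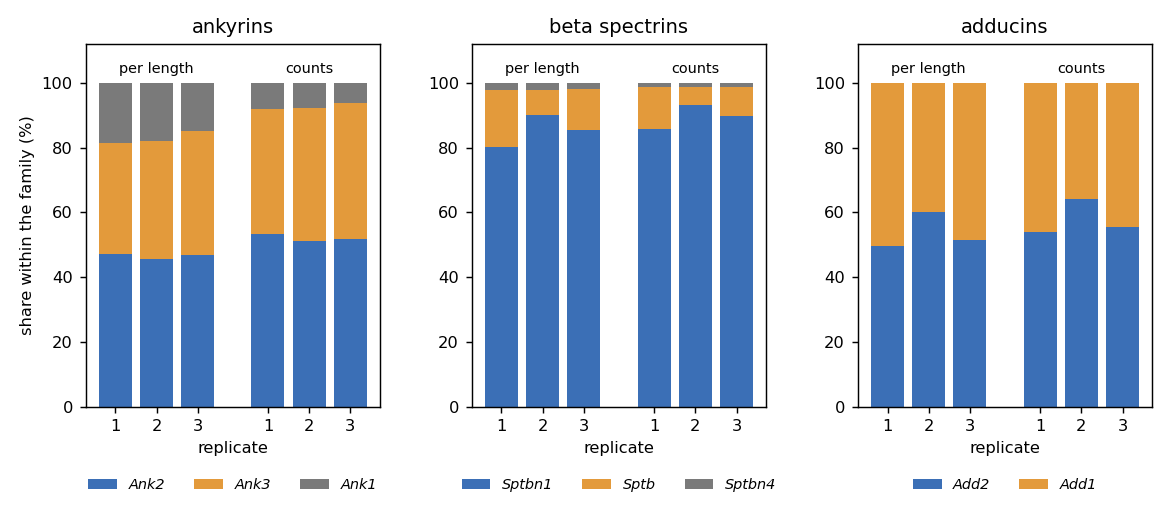
Share of each paralog within the listed ankyrins, beta spectrins and adducins (percent, stacked to 100) in each library, per length on the left of each panel and as plain counts on the right. The Ank2 share per length stays between 45.4% and 47.2%, and the Sptbn1 share per length runs from 80.1% in replicate 1 to 90.1% in replicate 2.

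Most transcripts of the listed spectrins came from Sptan1 and Sptbn1. Sptan1, which encodes alpha-II spectrin, the alpha chain of nonerythroid cells (ENSMUSG00000057738.13, chr2:29965560-30031451, plus strand), had 11030, 11719 and 13705 counts, or 1460.3, 1330.03 and 1759 CPM. Sptbn1, which encodes beta-II spectrin (ENSMUSG00000020315.18, chr11:30099395-30268175, minus strand), had 11750, 13007 and 13023 counts, or 1556, 1476 and 1671 CPM. Both genes were highest in replicate 3 and lowest in replicate 2.

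Per length over all annotated exons, Sptan1 lay near the sum of the 3 listed beta spectrin genes. Sptan1 was at 113 ± 16.4 RPKM and Sptbn1 at 89.6 ± 5.61 RPKM (SD, n = 3), a log2 difference of 0.33 ± 0.12 with Sptan1 the higher in 3 of 3 libraries. The 3 listed beta genes together reached 105 ± 10.3 RPKM. Sptan1 minus that sum was -0.02, 0.09 and 0.23 in replicates 1, 2 and 3, a mean of 0.10 ± 0.13 that is smaller than its SD and not of 1 sign (p = 0.5 by the exact permutation test). With the longest coding transcript as length this difference was -0.02 ± 0.12, and with exons of coding transcripts 0.28 ± 0.12, positive in 3 of 3 libraries, so its sign depends on the length.

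Sptbn4, the beta-IV spectrin gene of axon initial segments and nodes, was the lowest of all 9 members. This gene (ENSMUSG00000011751.16, chr7:27356383-27447686, minus strand) had 183, 170 and 171 counts, or 24.2, 19.3 and 21.9 CPM. At 2.28 ± 0.26 RPKM (SD, n = 3) it lay below Sptbn1 by 5.24 ± 0.14 on the log2 scale (37.8-fold) in 3 of 3 libraries. With the longest coding transcript as length, that fold was 66.7. Ank3, whose protein recruits beta-IV spectrin to the initial segment, was among the 4 highest members by RPKM in the same libraries.

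Sptb, the beta-I spectrin gene, was the most variable member. It (ENSMUSG00000021061.15, chr12:76580488-76710547, minus strand) had 1791, 774 and 1326 counts, or 237, 87.8 and 170.2 CPM, and 13.6 ± 6.16 RPKM (SD, n = 3). Replicate 2 was the lowest library and replicate 1 the highest, by a factor of 2.70. Among the 3 listed beta spectrins, Sptb held 17.6%, 7.72% and 12.5% of the level per length in replicates 1, 2 and 3, Sptbn1 held 80.1%, 90.1% and 85.4%, and Sptbn4 held 2.28%, 2.15% and 2.05%. Sptbn1 exceeded Sptb by 2.82 ± 0.67 on the log2 scale of RPKM, from 2.18 in replicate 1 to 3.53 in replicate 2. Sptb in turn exceeded Sptbn4, the difference of Sptbn4 minus Sptb being -2.42 ± 0.57, of 1 sign in 3 of 3 libraries.

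Ank1, Sptb and Add2 are also genes of red blood cells, whose other markers were low or without counts. Of 11 listed red blood cell genes, 9 are in the tables, and the globin genes Hbb-bt and Hba-a1 are missing. Multiply aligned reads were not counted to genes, so counts of genes with close copies may be too low, which was not tested for the globins. Slc4a1, the anion exchanger that ankyrin-R holds in red cells, Klf1 and Rhag had no count in any library, so the level of each may reach 0.397, 0.34 and 0.385 CPM in replicates 1, 2 and 3 at most (3 counts, counting error only). Epb42, another red cell skeleton gene, had 0, 0 and 4 counts. Replicate 2 held most of the counts of the others, with Alas2 at 9, 106 and 8 counts (12.03 CPM in replicate 2) and Hbb-bs at 0, 66 and 3 counts (7.49 CPM in replicate 2). The 9 genes summed to 1.19, 26.0 and 2.82 CPM in replicates 1, 2 and 3, highest in the library where Sptb was lowest. Add2 (89.9, 147 and 142 CPM) and, by a small margin, Ank1 (444, 449 and 418 CPM) were highest in replicate 2. Summed inhibitory neuron markers were 706, 397 and 890 CPM, lowest in replicate 2 as Sptb was. Purkinje markers were 5699, 7621 and 7027 CPM and glutamatergic deep nuclei markers 662, 476 and 421 CPM. The part of red blood cells or of these neurons in the Sptb, Add2 and Ank1 values was not tested.

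Both listed adducin genes were well below the main ankyrins and spectrins. Add1, the widely used alpha-adducin gene (ENSMUSG00000029106.14, chr5:34573664-34632308, plus strand), had 580, 729 and 882 counts, or 76.8, 82.7 and 113 CPM. Add2, the beta-adducin gene of brain and red cells (ENSMUSG00000030000.10, chr6:86028681-86124409, plus strand), had 679, 1299 and 1103 counts, or 89.9, 147 and 142 CPM. Add1 was highest in replicate 3 and Add2 in replicate 2. Per length they were at 10.6 ± 2.28 and 12.5 ± 3.12 RPKM (SD, n = 3), and their ranges over the libraries overlap. Add1 minus Add2 was 0.02, -0.58 and -0.08 on the log2 scale, or -0.22 ± 0.32 (p = 0.5 by the exact permutation test), and 0.38 ± 0.32 with the longest coding transcript as length. Add3, the gamma-adducin gene outside the listed members, was at 25.3 ± 4.35 RPKM. With it included, Add3 held 52.4 ± 3.01% of the adducin level per length, Add2 25.5 ± 2.17% and Add1 22.1 ± 3.52%.

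**Figure D3:**
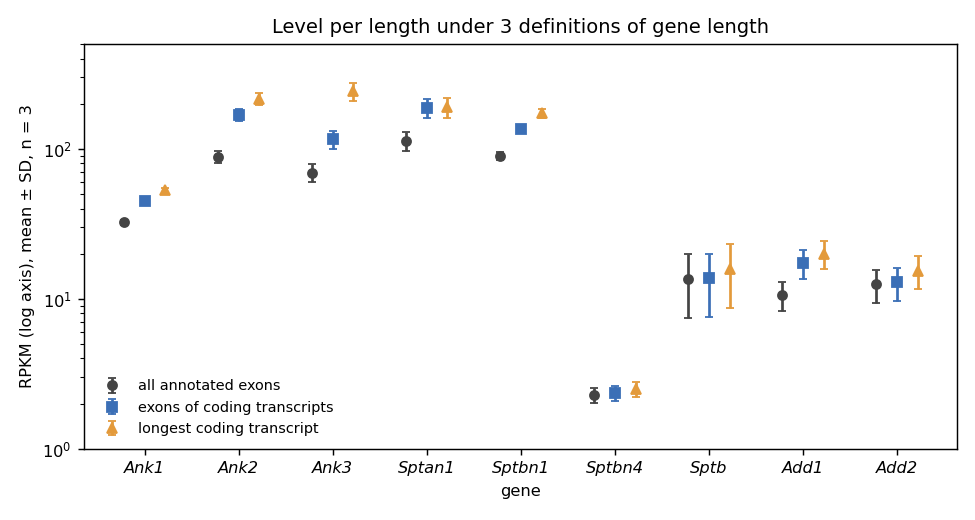
Mean RPKM ± SD over 3 libraries (log axis) of each member with length taken as all annotated exons, exons of coding transcripts, or the longest coding transcript. Ank2 and Ank3 change order, from 88.4 and 69.2 RPKM with all exons to 216 and 242 RPKM with the longest coding transcript, while Sptbn4 is lowest under each definition.

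In order of RPKM over all annotated exons, the members ran Sptan1, Sptbn1, Ank2, Ank3, Ank1, Sptb, Add2, Add1 and Sptbn4. Neighbours in that order differed by more than the SD of their log2 difference except for Sptbn1 and Ank2 (0.02 ± 0.06), Sptb and Add2 (0.05 ± 1.06) and Add2 and Add1 (0.22 ± 0.32). With the longest coding transcript, Ank3 (242 ± 33.2 RPKM) and Ank2 (216 ± 19.98 RPKM) came first, before Sptan1 and Sptbn1. Under both lengths, Ank1, Ank2, Ank3, Sptan1 and Sptbn1 ranked above Sptb, Add1, Add2 and Sptbn4. The widest step between neighbours was the last one in either order, down to Sptbn4 (2.15 ± 0.35 and 2.55 ± 0.54 on the log2 scale). The median of the members' mean CPM was 437, against 24.7 over the 11168 genes with at least 10 counts in 2 libraries, a filter that all 9 members passed. CPM favours long genes, and most members are long.

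Among the members, Ank1 and Sptbn1 had the lowest CV between libraries, and the median over all 9 was 13.7%. Ank1 had a CV of 3.85% and Sptbn1 of 6.25%, against a median of 56.3% over the 11168 genes tested, and 0.600% and 1.38% of those genes had a lower CV. The CV falls with the level, and the median over the 2067 genes with a mean of at least 100 CPM was 25.4%. Among those genes, 2.03% had a lower CV than Ank1 and 4.40% a lower one than Sptbn1. The same share was 9.48% for Ank2, 19.7% for Ank3, 21.6% for Sptan1 and 49.0% for Add2. At the other end, Sptb had a CV of 45.3%. A lower one was found in 84.4% of the genes with at least 100 CPM and in 39.3% of all genes tested. By a Poisson chi-square test of the counts with Benjamini-Hochberg adjustment over all genes tested, 8 of 9 members varied beyond counting error, where 96.5% of all genes did. Sptbn4 was the exception, with an adjusted p of 0.103 in this Poisson test, which does not show that it was constant. In the same test, Ank1 passed with an adjusted p of 0.006. Without 1 library, 7, 8 and 6 of the members passed as replicate 1, 2 or 3 was left out, where 80.5%, 81.8% and 82.2% of all genes did. Without replicate 3, Ank1, Ank2 and Add1 did not pass, and Sptbn4 did.

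Against other genes of its level, no member was called more variable. In edgeR's quasi-likelihood fit, a gene's dispersion is divided by the value expected from the trend over all genes, and this ratio was 2.19 for Sptb, 0.82 for Ank3, 0.72 for Sptan1, 0.41 for Ank2 and 0.027 for Ank1. At an adjusted p under 0.05, edgeR called 0 members and 0.0% of all genes, with 477 genes at an unadjusted p under 0.05. Limma also called 0, with 522 genes at an unadjusted p under 0.05. None of the 9 members was among those genes in either fit, the lowest unadjusted p of a member being that of Sptb (0.172 in edgeR and 0.144 in limma).

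**Figure D4:**
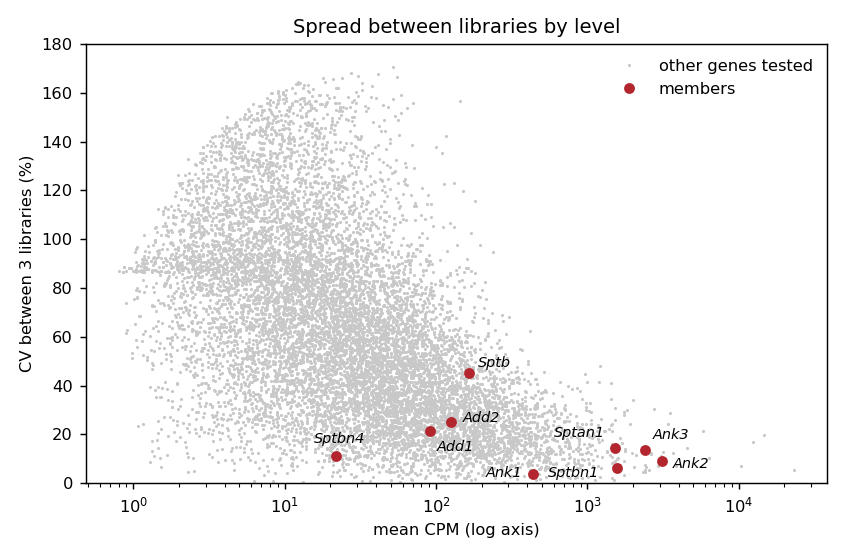
CV between the 3 libraries (percent) against mean CPM (log axis) for all genes tested in grey, with the 9 members in red. The CV falls with the level, Ank1 lies at 3.85% and Sptb at 45.3%.

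The other genes of the membrane skeleton were mostly present. Of 20 such genes listed, 19 are in the tables, 15 had a mean of at least 10 CPM and 8 of at least 100 CPM. Actb, the beta-actin gene, was at 157 ± 12.7 RPKM (SD, n = 3), and Tmod2, the neuronal tropomodulin that caps the slow ends of actin filaments, at 69.4 ± 5.92 RPKM. The protein 4.1 genes, whose products strengthen the bond of spectrin with actin, were led by Epb41l1 (59.8 ± 11.1 RPKM) and Epb41l3 (42.3 ± 11.6 RPKM), above Epb41 (19.0 ± 3.33 RPKM) and Epb41l2 (3.75 ± 0.62 RPKM). Tmod4, the tropomodulin of skeletal muscle, had no count. Stom had 78, 98 and 2 counts.

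Most genes of ankyrin-binding membrane proteins were abundant in the same libraries. Of 19 listed, 14 had a mean of at least 100 CPM and 17 of at least 10 CPM. Itpr1, a calcium release channel gene, was at 200.3 ± 24.6 RPKM (SD, n = 3). The adhesion molecule gene Nfasc, whose neuronal product sits at initial segments and nodes with ankyrin-G, was at 81.2, 58.8 and 54.0 RPKM in replicates 1, 2 and 3. Scn8a, the sodium channel gene of the same sites, was at 176, 102 and 100.3 RPKM. Both were highest in replicate 1, the library in which Ank3 was lowest. Others of the list were lowest in replicate 1, such as Nrcam (20.5, 29.4 and 24.0 RPKM) and Itpr1 (172, 215 and 214 RPKM). A relation of these genes to Ank3 was not tested. Kcnq3, a potassium channel gene, had 28, 137 and 28 counts (0.52 ± 0.47 RPKM). Slc4a1 had no count. Of 8 genes of initial segment organisation and of calpain, the protease that cuts spectrin, all had a mean of at least 10 CPM, though Cdk5 (replicates 1 and 3) and Capn1 (replicate 3) were below it in single libraries. Among them Mapre3 was at 146 ± 41.0 RPKM, Capn2 at 24.3 ± 2.21 RPKM and Trim46, which bundles microtubules at the initial segment, at 5.05 ± 2.01 RPKM.

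**Figure D5:**
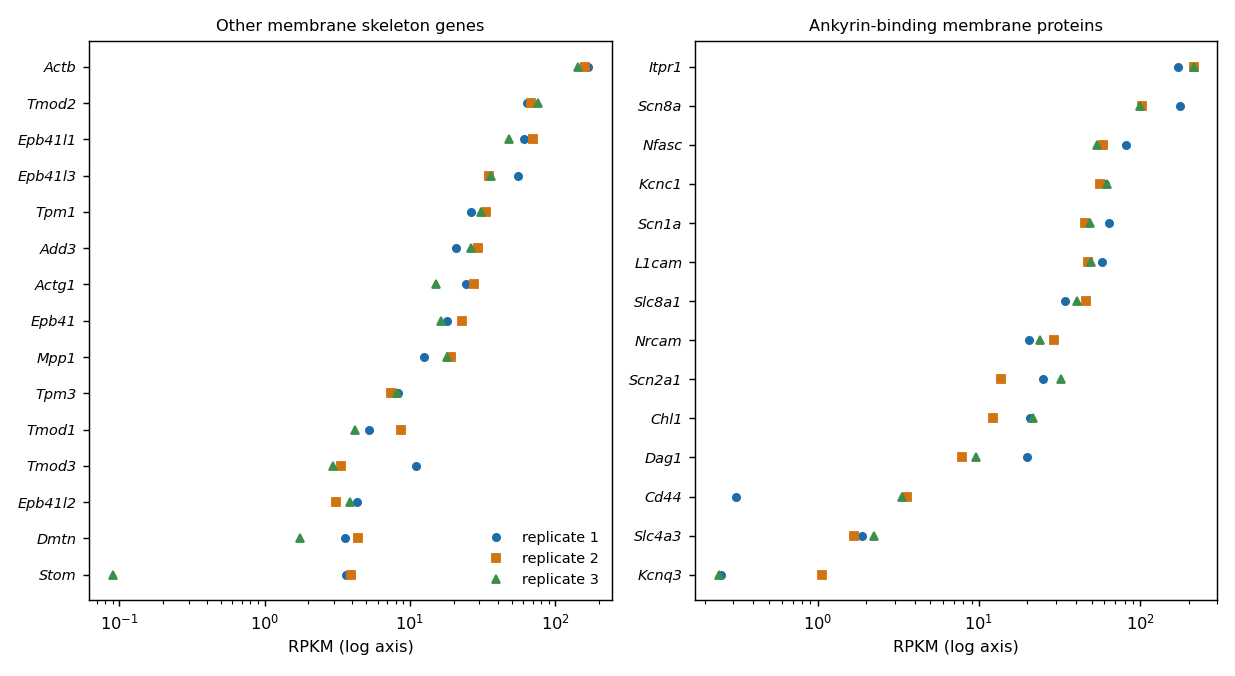
RPKM (log axis) of selected other membrane skeleton genes on the left and genes of ankyrin-binding membrane proteins on the right, with 1 symbol per library; genes without a count in every library are not shown. Of the genes drawn on the right, Itpr1 is highest at a mean of 200.3 RPKM and Kcnq3 lowest at 0.52 RPKM.

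Among all other genes, those with CPM values nearest to Ank2 in all 3 libraries were Srrm2, Clip3 and Pclo, with largest differences of 0.14, 0.22 and 0.24 in any library on the log2(CPM + 1) scale. Nearest to Sptan1 were Ywhae, Nsf and Rtn1 (0.14, 0.14 and 0.16). Nearest to Ank1 were Hspa4, Erc1 and Chn2 (0.09, 0.10 and 0.11). This likeness is of values in 3 libraries of 1 group and carries no test.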

How the data were processed

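RNA sequencing libraries of 3 purified samples of 1 group were used. The authors deposited 1 table per library with the raw count of each gene symbol. Per the submitters' processing notes, HTSeq and STAR 2.0.0e were used with build mm10. Which annotation and strand setting went into counting is not given in the sources. The summary rows of HTSeq were left out: 44.1% to 50.2% of counted reads fell on no feature and 1.77% to 1.94% on several genes, and multiply aligned reads were not counted to genes. A row named unknown held 0 counts.

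From these counts, CPM was computed with effective library sizes by TMM in edgeR 4.0.16 (R 4.3.3). RPKM used the union of all exons of a gene in GENCODE M21 (mm10). A library's total does not affect paralog shares. Log2 values have a pseudocount of 0.1 on RPKM and of 1 on CPM. The annotation behind the counts may differ from M21, which would change lengths. Of the 32531 symbols, 23113 matched 1 gene of M21, and 6 listed genes were matched through an older symbol. Differences between members within a library were tested in 9 pairs by flipping signs over libraries (exact permutation test, two-sided). For the spread between libraries, genes needed 10 counts or more in 2 libraries (11168 genes). The spread was tested with a chi-square against Poisson counting and with the ratio of dispersion to trend from glmQLFit in edgeR. Both had Benjamini-Hochberg adjustment and a threshold of 0.05, and both were run on simulated data. A minimum recovery was required there of the Poisson test only, and the recovery by the quasi-likelihood test is not reported here. Coding sequences were compared with blastn 2.17.0 and MAFFT 7.526. Alternatives were DESeq2 1.42.0 size factors, plain totals, other lengths, a pseudocount of 1, a further adducin, another count filter, robust estimation, limma 3.58.1 and leaving out each library.

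By rule, named genes were the 9 members, genes of the fixed lists (any of them, with the 5 highest and 3 lowest by mean CPM in view), and for Ank2, Sptan1 and Ank1 the 3 genes outside the members with the smallest largest absolute difference of log2(CPM + 1) over the libraries. Outside that rule, Gm15816 and Gm44089 are named because they overlap members. Some listed genes are not reported here. From the lists, which genes to describe was chosen after their values were seen. The members and lists were chosen with earlier results of these data known.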

Additional observations from a re-analysis of the deposited data

How the results depend on the processing

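Among the recomputed values, 169 were kept (differences: same sign, shares and levels: within 1 SD, counts of genes: within 1.5 times), 34 moved further and 6 changed sign. Whether single genes stayed on their side of the threshold was not part of this count. DESeq2 size factors and a pseudocount of 1 on RPKM changed no sign, but neither can change the sign of a difference between members within a library. Leaving out 1 of 3 libraries cannot move a mean by more than 1 SD, nor reverse a difference of 1 sign in all of them. Such values were kept by construction, so the count of 169 does not measure robustness. All 6 changes of sign came with another gene length or none. With the longest coding transcript as length, the shares were 10.5% for Ank1, 42.3% for Ank2, 47.2% for Ank3, 90.5% for Sptbn1, 1.31% for Sptbn4, 56.6% for Add1 and 43.4% for Add2, and the log2 differences were -0.16 for Ank2 minus Ank3, -0.02 for Sptan1 minus the 3 beta genes and 0.38 for Add1 minus Add2. As plain counts, the shares were 7.42% for Ank1, 52.1% for Ank2, 40.5% for Ank3 and 1.24% for Sptbn4, and on CPM Sptan1 minus Sptbn1 was -0.06 and Sptan1 minus the 3 beta genes -0.22. With exons of coding transcripts (added after the data were seen), Ank1 held 13.8%, Ank2 51.3%, Sptbn4 1.55%, Add1 57.6% and Add2 42.4%, and Add1 minus Add2 was 0.44. With Add3 included, Add1 held 22.1% and Add2 25.5%. The same alternative for the beta spectrins is not reported. These changes follow from the lengths and genes entered. By edgeR's quasi-likelihood dispersion, 20 genes were called among all 16071 with any count, none of them a member, and 2 to 5 genes with 1 library left out; the cause was not tested. No paired analysis was possible because there is no other group whose libraries could be paired with these. The sign tests in the report pair genes within a library. Depth limits Sptbn4 most, with 170 to 183 counts per library.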
